A study of Rattus norvegicus with 15 samples.

Results

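Nuclear protein-coding genes were compared between the prostatitis model (Model) and Control in rat prostate tissue, 5 RNA-seq libraries against 5. The reads of the 13 mitochondrially encoded genes were taken out of every library, and each library was rescaled to the reads that remained. Of the 18114 nuclear protein-coding genes in the table, 12024 exceeded 0.5 rescaled FPKM (a read density that allows for gene length and for the nuclear reads in the library) in at least 5 of the 10 libraries, and these are the members described. The members nearest to this limit on each side were RGD1563159, with a 5th highest value of 0.500056, and RGD1563056, just outside with 0.499978. Among the members, 284 exceeded the limit in no Model library and 22 in no Control library. Such members passed through the other group alone, which fixes the direction of their change and the lack of overlap in advance. The tissue came from SD rats, and the treatment field reads No for both groups. A further group of 5 libraries, treated with low-intensity pulsed ultrasound, belongs to the series and was not used here. The series as a whole asks how this treatment affects a rat model of chronic prostatitis with pelvic pain. How the model was induced, the age of the rats and the lobe taken are not given in the sources used here. Whether the 5 samples of each group are 5 rats is not stated, and each p-value rests on a spread among samples that may be technical.

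The rat prostate consists of paired lobes around the urethra, each with its own secretion made by androgen-dependent luminal cells. The ventral lobe secretes prostatein, a steroid-binding protein built from the secretoglobins Scgb1d2, Scgb1d4 and Scgb2a1, while probasin (Pbsn) and beta-microseminoprotein (Msmb) come from the dorsal and lateral lobes. Basal cells lie under the luminal layer, and a stroma of smooth muscle, fibroblasts, vessels and nerves surrounds the glands. In chronic prostatitis, immune cells enter this stroma and the epithelium.

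Both groups carried the luminal and prostate markers of the labelled tissue. Hoxb13, a homeobox factor that marks prostate epithelium, was present at 144 to 178 in Control and 165 to 350.4 in Model, and the luminal keratin gene Krt18 at 87.1 to 120.3 in Control and 189 to 233 in Model (rescaled FPKM). The libraries held 30907739 to 36402094 reads, recovered from the steps of the deposited values. Mitochondrially encoded genes took 3.75 to 4.69% of the reads in Control and 23.5 to 43.5% in Model (exact permutation test, two-sided, p = 0.00794, which is the lowest value 5 against 5 can give, adjusted p = 0.0119 over 6 library measures). That left 29557934 to 34696410 nuclear reads per Control library and 18351107 to 27060260 per Model library. Nuclear genes with at least 1 read numbered 17984 to 18855 in Control and 14182 to 16271 in Model (exact permutation p = 0.00794, adjusted p = 0.0119). A count of 0 reads allowed a level of up to 0.0432 to 0.0817 rescaled FPKM in a gene of 2 kb, for counting error only. The secretory make-up also moved with the groups. Transcripts of the 3 ventral secretoglobins took 11.1 to 18.4% of nuclear reads in Control, 0.0274 to 2.15% in Model replicates 6, 8, 9 and 10, and 9.13% in Model replicate 7. Pbsn and Msmb together took 0.297 to 4.76% in Control, 12.0 to 16.8% in these 4 Model libraries and 0.0422% in Model replicate 7. Replicate 7 therefore had a ventral make-up without the dorsolateral products, and the other Model libraries the reverse, so the counts below are also given without it. In bulk tissue, fewer cells of a type and less RNA per cell cannot be told apart, and the part of the mitochondrial share and the depth in the results was not tested. Without replicate 7, lobe make-up and group cannot be told apart, since every Control library held more ventral than dorsolateral reads and the other 4 Model libraries fewer.

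**Figure D1:**
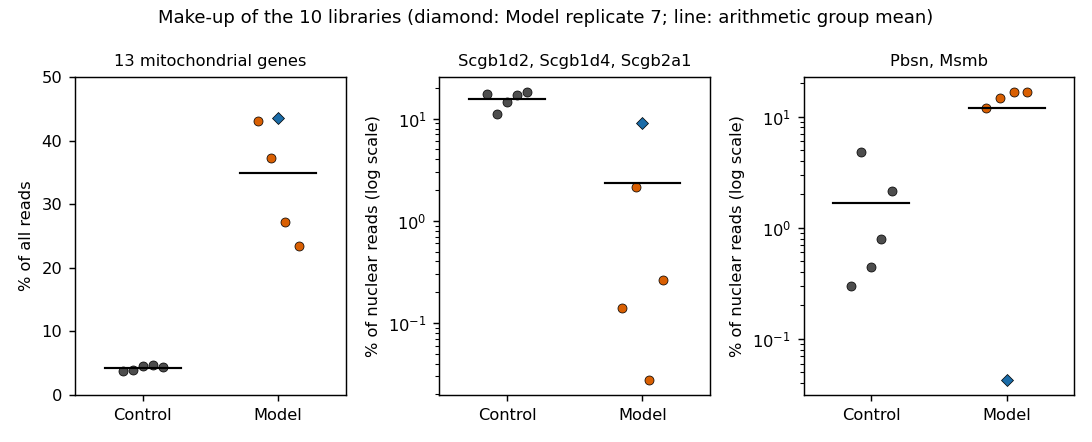
Make-up of the 10 libraries by group: the percent of all reads from mitochondrially encoded genes (linear axis), and the percent of nuclear reads from the ventral secretoglobins and from Pbsn with Msmb (log axes). Each point is a library, the diamond is Model replicate 7 and the line is the arithmetic mean of 5 libraries. Model libraries lie at 23.5 to 43.5% mitochondrial reads against 3.75 to 4.69% in Control, and replicate 7 stands at 9.13% ventral and 0.0422% dorsolateral reads.

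In the linear model (limma on log2 of rescaled FPKM plus 0.1, adjusted p under 0.05 over all 12475 nuclear genes tested), 4804 members changed, 40.0% of the 12024. The lower side was the larger: 1485 members (12.4%) were higher in Model and 3319 (27.6%) were lower, with 735 and 2722 of them changed at least 2-fold. Without Model replicate 7, 7698 members passed (64.0%), 2342 higher (19.5%) and 5356 lower (44.5%), so this library alone moved both counts by more than 1.5 times. The calls kept their sides: 1482 of the 1485 higher and 3315 of the 3319 lower members were called in the same direction without it, and 0 in the opposite one. All 5 Model libraries lay above all 5 Control libraries for 1210 members (10.1%) and below them for 2397 (19.9%). The median log2 change over members was −0.38, and −0.42 without replicate 7. How the libraries are scaled shifts this centre and the split of the calls: the median was −0.17 with median-of-ratios factors (2161 higher and 2886 lower), −0.05 with quantile normalization (2536 and 2419) and −0.91 as deposited (580 and 6890). Counts of list members below are therefore read against the 12.4% and 27.6% of all members, and changes against a median member of −0.38.

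Replicate 7 followed the other Model libraries for some genes and not for others. Of the 2342 members called higher without it, it lay above all Control libraries for 1419 (60.6%) and below all of them for 619 (26.4%). Of the 5356 called lower, it lay below for 2751 (51.4%) and above for 1783 (33.3%). Over all members the shares were 42.7% above, 41.9% below and 15.4% within the Control range. These are positions of 1 library and carry no test. The lists below show which groups of genes moved in replicate 7 as in the other 4 libraries. For single libraries, a list median is the median over its tested genes of the log2 level minus the Control mean. Other list medians are medians of the log2 change in the fit.

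**Figure D2:**
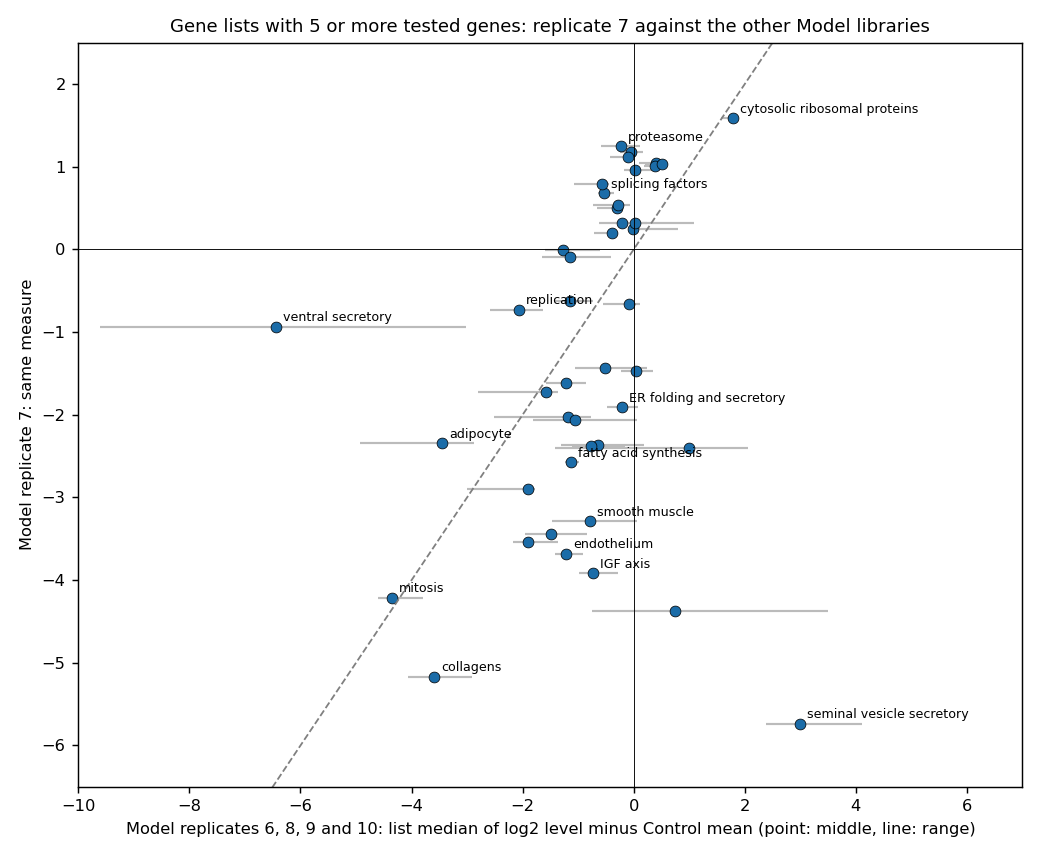
Gene lists with at least 5 tested genes: the list median of log2 level minus Control mean in Model replicate 7 (vertical axis) against the same in Model replicates 6, 8, 9 and 10 (horizontal axis, point at the middle and line over the range); the dashed line marks equal values. Mitosis genes (−4.21 against −4.60 to −3.80) and cytosolic ribosomal protein genes (1.59 against 1.56 to 1.86) lie near the line, while proteasome and splicing genes lie above it and smooth muscle, endothelial and IGF axis genes below it.

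Transcripts of dividing cells were far lower in Model, in replicate 7 as in the other libraries. A cell that enters division first raises genes for DNA replication and later those of the spindle and chromosome segregation; in resting cells both sets are held down by repressor complexes at their promoters. All 29 tested mitosis genes fell, with and without replicate 7, against 27.6% and 44.5% of all members, and their median log2 change was −4.45. Top2a (NCBI gene 360243), the topoisomerase that untangles chromosomes, had levels of 14.5, 13.1, 19.3, 10.6 and 20.6 in Control and 0, 0, 0, 0 and 0.134 in Model, in rescaled FPKM and, here and below, in the order of replicates 6 to 10. A single Model library held any Top2a read (log2 change −7.01, SE 0.32, adjusted p = 2.77e-06). The spindle checkpoint kinase gene Bub1 was at 2.75, 2.80, 4.33, 2.23 and 4.94 in Control and 0.138, 0, 0, 0.0709 and 0.00795 in Model, in rescaled FPKM (log2 change −4.65, SE 0.35, adjusted p = 1.26e-05). Prc1, which bundles the microtubules of the central spindle, had a log2 change of −5.64 (adjusted p = 2.38e-05) and the cyclin gene Ccna2 one of −5.97 (adjusted p = 3.9e-06). The groups did not overlap for any of these 4 genes.

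Replication genes were lower in Model too, and replicate 7 differed from the other Model libraries in them. Of 25 tested, 17 fell and 0 rose (24 and 0 without replicate 7), with a median log2 change of −2.06; the list median lay at −0.73 in replicate 7 and at −2.59 to −1.64 in the other 4. Pclaf, a clamp-associated replication factor, was at 35.5, 32.5, 51.8, 29.8 and 42.7 in Control and 0.148, 0, 0, 0.619 and 1.22 in Model, in rescaled FPKM (log2 change −6.98, SE 0.68, adjusted p = 3.68e-05). Rrm2, the small subunit of the enzyme that makes deoxynucleotides, had a log2 change of −6.56 (adjusted p = 4.23e-06) and reads in 1 Model library. Pola1, the catalytic subunit of the primase-polymerase, kept more of its level, at 2.79, 2.68, 3.92, 2.74 and 3.78 in Control and 0.754, 0.641, 0.499, 0.424 and 0.775 in Model, in rescaled FPKM (log2 change −2.20, SE 0.24, adjusted p = 6.81e-05). Model libraries lay below Control for all 3, though Rrm2 too passed the filter through the Control libraries alone. Among 17 inhibitors of the cell cycle, 10 fell and 1 rose (12 and 1 without replicate 7): Rbl1, the p107 pocket protein that holds E2F factors, fell by 2.75 on the log2 scale (adjusted p = 9.55e-05), Cdkn2c, an inhibitor of the G1 kinases, fell by 2.40 (adjusted p = 2.35e-04), and the antiproliferative gene Btg1 rose by 1.08 (adjusted p = 0.0120). Btg1 lost its call as deposited, after quantile normalization and after centring by gene length (adjusted p = 0.204, 0.117 and 0.0623).

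Promoters are shown for genes of both lists, since mitosis and replication genes are known to be switched by different letters near the start of transcription: a CHR element (TTTGAA) paired with CCAAT boxes in mitosis genes, and E2F sites (TTGGCGC or TTCCCGC) in replication genes. The sequences are the 150 bases before the annotated start, from RefSeq for build GRCr8, 5′ to 3′ on the strand of the gene, with the letters of these motifs on either strand in capitals.
Top2a (GRCr8 chr10:84473094-84473243, minus strand): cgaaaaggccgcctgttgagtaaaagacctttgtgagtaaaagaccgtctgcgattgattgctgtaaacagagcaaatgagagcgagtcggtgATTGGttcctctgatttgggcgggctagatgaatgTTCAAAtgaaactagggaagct
Anln (GRCr8 chr8:29197514-29197663, minus strand): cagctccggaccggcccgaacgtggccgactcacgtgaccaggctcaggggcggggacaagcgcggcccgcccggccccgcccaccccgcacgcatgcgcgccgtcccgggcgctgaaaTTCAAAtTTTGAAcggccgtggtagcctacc
Bub1 (GRCr8 chr3:135504922-135505071, minus strand): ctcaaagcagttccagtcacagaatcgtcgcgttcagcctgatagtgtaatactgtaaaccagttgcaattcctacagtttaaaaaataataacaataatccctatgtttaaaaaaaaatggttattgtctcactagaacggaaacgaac
Pclaf (GRCr8 chr8:75315567-75315716, plus strand): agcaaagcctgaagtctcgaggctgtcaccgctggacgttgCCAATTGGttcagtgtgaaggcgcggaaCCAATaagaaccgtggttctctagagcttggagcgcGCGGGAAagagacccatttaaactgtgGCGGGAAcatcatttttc
Pola1 (GRCr8 chrX:62342356-62342505, minus strand): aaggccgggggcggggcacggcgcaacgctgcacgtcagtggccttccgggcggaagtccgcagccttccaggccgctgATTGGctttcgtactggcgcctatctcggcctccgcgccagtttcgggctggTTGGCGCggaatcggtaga
Top2a has a CCAAT box that begins 57 bases and a CHR that begins 22 bases before the start; Anln, which encodes the ring protein anillin, has a CHR on each strand, and none of these letters lie in this stretch of Bub1. Pclaf has 3 CCAAT matches, of which the first and second share bases, and 2 E2F matches, and Pola1 has 1 of each. In the 250 bases before the start, a CHR lay in 10 of 23 mitosis promoters found in the table (43.5%), in 1 of 21 replication promoters (4.76%), in 16.03% of all 27457 promoters and in 10.2% of the 9790 members' promoters. CHR and CCAAT occurred together in 9 mitosis promoters (39.1%) and in 5.76% of all. E2F letters lay in 9 replication promoters (42.9%), in 2 mitosis promoters (8.70%), in 5.32% of all promoters and in 9.62% of the members'. CCAAT lay in 73.9% of mitosis, 61.9% of replication and 34.3% of all promoters. Members called lower held a CHR in 9.80% and E2F letters in 10.3% of their promoters, close to the 10.2% and 9.62% over all members. A match is a description of letters, not a site or a cause.

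Collagens and the rest of the fibrous matrix were also far lower in Model. Fibroblasts and smooth muscle cells secrete collagens, enzymes in and outside the cell process and crosslink them, and glycoproteins tie the fibres to cells. Of 16 collagen genes 15 fell and 0 rose (15 and 0 without replicate 7), with a median log2 change of −3.65, and replicate 7 lay below all Control libraries for all 16. The fibrillar collagen gene Col1a1 (NCBI gene 29393) was at 118, 203, 289, 141 and 174 in Control and 5.46, 1.46, 2.21, 1.37 and 4.07 in Model, in rescaled FPKM, 67.4-fold lower in the fit (log2 change −6.07, SE 0.40, adjusted p = 7.06e-06). Col3a1, the collagen of loose stroma, was at 223, 369.5, 454, 240.4 and 345 in Control and 17.8, 5.63, 10.8, 9.23 and 13.02 in Model, in rescaled FPKM (log2 change −4.89, SE 0.31, adjusted p = 7e-06). The groups lay far apart for both, with replicate 7 inside the range of the other Model libraries or below it. Of 16 collagen-processing genes 13 fell and 0 rose (14 and 1 without replicate 7), among them the crosslinking oxidase gene Loxl2 (log2 change −3.65, adjusted p = 7.06e-06). Loxl2 passed the filter through the Control libraries alone. Of 19 matrix glycoproteins and proteoglycans 16 fell and 0 rose (18 and 0 without replicate 7), among them the fibulin gene Fbln1 (log2 change −3.50). Postn (periostin) was at 22.8, 24.1, 29.1, 24.6 and 27.1 in Control and 2.10, 3.31, 2.13, 1.11 and 1.76 in Model, in rescaled FPKM (log2 change −3.62, SE 0.25, adjusted p = 8.37e-06). Elastin (Eln) had a log2 change of −5.58 (adjusted p = 2.4e-05). In each of these 3 lists the number of lower genes stayed within 3 of these values under the other scalings tried, and 0 genes rose.

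Single genes of stromal growth factor pathways were lower in Model, while the counts of these lists lay near the shares over all members. TGF-beta and BMP ligands act on paired receptor kinases, and latent binding proteins store them in the matrix. Of 25 genes of this pathway 10 fell and 1 rose (10 and 2 without replicate 7), against 27.6% (44.5%) lower over all members, and 4 fell and 2 rose after centring by gene length. The BMP receptor gene Bmpr1a was at 31.4, 27.4, 30.8, 31.9 and 34.2 in Control and 4.38, 5.87, 3.55, 5.13 and 3.68 in Model, in rescaled FPKM, with replicate 7 beside the other Model libraries (log2 change −2.78, SE 0.17, adjusted p = 6.51e-06). The TGF-beta receptor gene Tgfbr2 fell by 2.07 on the log2 scale (adjusted p = 1.18e-04), and Ltbp4, which stores latent TGF-beta, by 5.15 (adjusted p = 3.09e-05). In the insulin-like growth factor axis 4 of 11 genes fell and 0 rose (5 and 2 without replicate 7), again near those shares. Igfbp5, a secreted protein that binds the factor, was at 60.5, 77.1, 94.7, 66.5 and 64.8 in Control and 0.911, 4.66, 1.13, 0.532 and 0.454 in Model, in rescaled FPKM (log2 change −5.96, SE 0.50, adjusted p = 2.11e-05). Igfbp4 had a log2 change of −1.58 (adjusted p = 0.00404).

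Markers of other stromal cells differed in how many were called lower. Smooth muscle had 3 of 16 genes lower and 0 higher (5 and 1 without replicate 7), under the 27.6% and 44.5% lower over all members, with a summed level of 1680.0 to 4445 in Control and 883 to 2297 in Model, in rescaled FPKM. The 3 called were Acta2, Synpo2 and Tagln. Acta2, smooth muscle actin, was at 301, 696, 876, 405 and 422 in Control and 71.4, 22.9, 29.99, 15.4 and 67.9 in Model, in rescaled FPKM (log2 change −3.84, SE 0.46, adjusted p = 1.29e-04). Synpo2, an actin-binding protein of muscle, had a log2 change of −4.50 (adjusted p = 2.06e-05). Tagln (transgelin) fell by 1.88. Endothelium had 7 of 14 lower and 0 higher (9 and 0 without replicate 7), with sums of 34.6 to 63.96 in Control and 3.50 to 25.03 in Model. Cdh5, the cadherin of vessel walls, had a log2 change of −3.39 (adjusted p = 2.31e-04). Adipocyte genes had 8 of 10 lower and 0 higher (8 and 0 without replicate 7), with sums of 42.8 to 368 in Control and 11.2 to 50.3 in Model. The lipase gene Lpl changed by −4.86 and the hormone gene Adipoq by −5.11 (log2, adjusted p = 2.24e-04 and 0.00142). Schwann cell genes had 5 of 7 lower and 0 higher (5 and 0 without replicate 7), among them the myelin gene Pmp22 (log2 change −1.26, adjusted p = 0.00273). For skeletal muscle (9 tested), erythrocytes (4) and urothelium (3), 0 genes passed the test in either direction; without replicate 7, 1 skeletal muscle gene was lower and 1 gene of each of the other two lists higher. Replicate 7 was the lowest Model library in smooth muscle, endothelium and basal epithelium: its list medians were −3.29, −3.68 and −3.44, against −1.47 to 0.07, −1.43 to −0.91 and −1.96 to −0.83 in the other Model libraries.

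**Figure D3:**
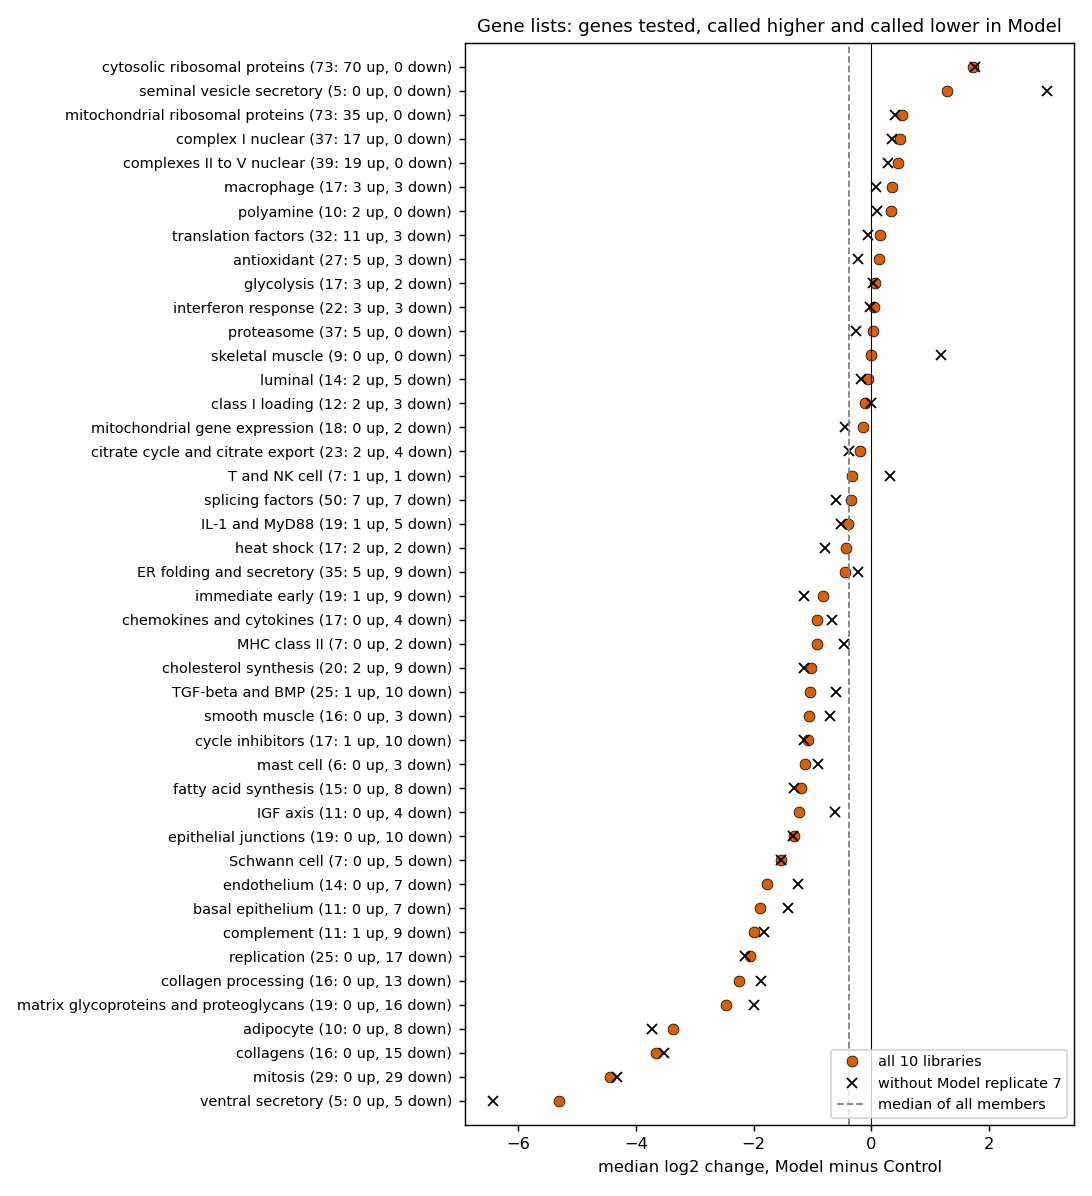
Median log2 change of the tested genes of 44 gene lists with at least 5 tested genes, with all 10 libraries (circles) and without Model replicate 7 (crosses); the dashed line is the median of all members at −0.38. Labels give genes tested, called higher and called lower. Ventral secretory, mitosis and collagen genes lie lowest, and cytosolic ribosomal protein genes highest among lists that hold their value without replicate 7.

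The lobe make-up given above was measured from secretory genes, so the levels of Scgb1d2, Scgb1d4, Scgb2a1, Pbsn and Msmb restate it. All 5 ventral secretory genes, 3 of them in that measure, fell, with a median log2 change of −5.30 (−6.44 without replicate 7). Replicate 7 is left out for its lobe make-up, so the larger fall without it follows from that choice. Scgb2a1 was at 73668, 55389, 64286, 78632 and 91404 in Control and 692, 37448, 8629, 163 and 1193 in Model, in rescaled FPKM (log2 change −5.07, SE 1.22, adjusted p = 0.00766). Sbp, the spermine-binding protein of ventral secretion, was at 7433, 6099.9, 6209, 7616 and 8303 in Control and 34.5, 2603, 878, 4.29 and 113 in Model (log2 change −5.75, SE 1.42, adjusted p = 0.00908). The call of Sbp was lost when the lobe ratio (ventral over dorsolateral reads, log2) was put in the fit (adjusted p = 0.0631). Replicate 7 held more than the other Model libraries in both. Pbsn was at 3323, 58153, 5593, 9106 and 25496 in Control and 126103, 538, 156799, 177012 and 179534 in Model, in rescaled FPKM. The log2 change missed the threshold for Pbsn (2.08, adjusted p = 0.314), Msmb (2.80, adjusted p = 0.349) and the defensin gene Defb50 (3.33, adjusted p = 0.261). Without replicate 7, which is left out for its low Pbsn and Msmb, these values were 3.72, 5.30 and 5.58, given with no test. Semg1, a semen coagulum gene, was at 375, 91522, 9563, 8695 and 22148 in Control and 93083, 45.3, 97343, 123010.0 and 107129 in Model, in rescaled FPKM. Semg1 had a log2 change of 1.28 (adjusted p = 0.673), and 3.52 without replicate 7, also with no test. By mean level, the most abundant members were Scgb1d4, Scgb2a1 and Andpro in Control and Pbsn, Semg1 and Defb50 in Model. The Model ranking does not hold in replicate 7, where Pbsn (538) and Semg1 (45.3) lay far below Scgb2a1 (37448 rescaled FPKM). Semg1 was listed here with the seminal vesicle secretory genes. Lao1, an amino acid oxidase, and the amino acid transporter gene Slc7a2 fell in every Model library including replicate 7. Lao1 was at 771, 582, 458, 639 and 993 in Control and 8.47, 48.9, 19.6, 4.63 and 11.4 in Model, in rescaled FPKM (log2 change −5.62). Slc7a2 was at 43.2, 27.1, 35.7, 36.8 and 37.8 in Control and 0.699, 1.51, 0.187, 0.663 and 0.571 in Model (log2 change −5.64).

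Among the epithelial keratins, luminal Krt18 rose and basal Krt5 fell. Krt18 was at 87.1, 120.3, 118, 96.04 and 96.4 in Control and 220.4, 233, 189, 208 and 219 in Model, in rescaled FPKM (log2 change 1.05, SE 0.14, adjusted p = 2.76e-04). Over all members 12.4% were higher and 27.6% lower, and 19.5% and 44.5% without replicate 7. Of 14 luminal genes 2 rose and 5 fell, near these shares (5 and 6 without replicate 7). The lower ones included the metalloreductase gene Steap4 (log2 change −2.93, adjusted p = 0.00153) and the androgen-regulated protease gene Tmprss2 (−1.23, adjusted p = 0.00203). Basal cells had 7 of 11 markers lower and 0 higher (9 and 0 without replicate 7), with sums of 77.2 to 105 in Control and 10.04 to 93.6 in Model, in rescaled FPKM. Krt5, the basal keratin, was at 9.84, 11.9, 9.10, 12.3 and 10.2 in Control and 2.84, 1.57, 0.789, 0.612 and 2.05 in Model, in rescaled FPKM (log2 change −2.87, SE 0.37, adjusted p = 1.96e-04). The hemidesmosome integrin gene Itgb4 had a log2 change of −3.54 (adjusted p = 8.49e-05). Of 19 genes of epithelial junctions 10 fell and 0 rose (16 and 1 without replicate 7), among them the tight junction genes Cldn8 (−2.40) and Ocln (−1.57) and the desmosome gene Dsp (−1.48), each without overlap between the groups.

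**Figure D4:**
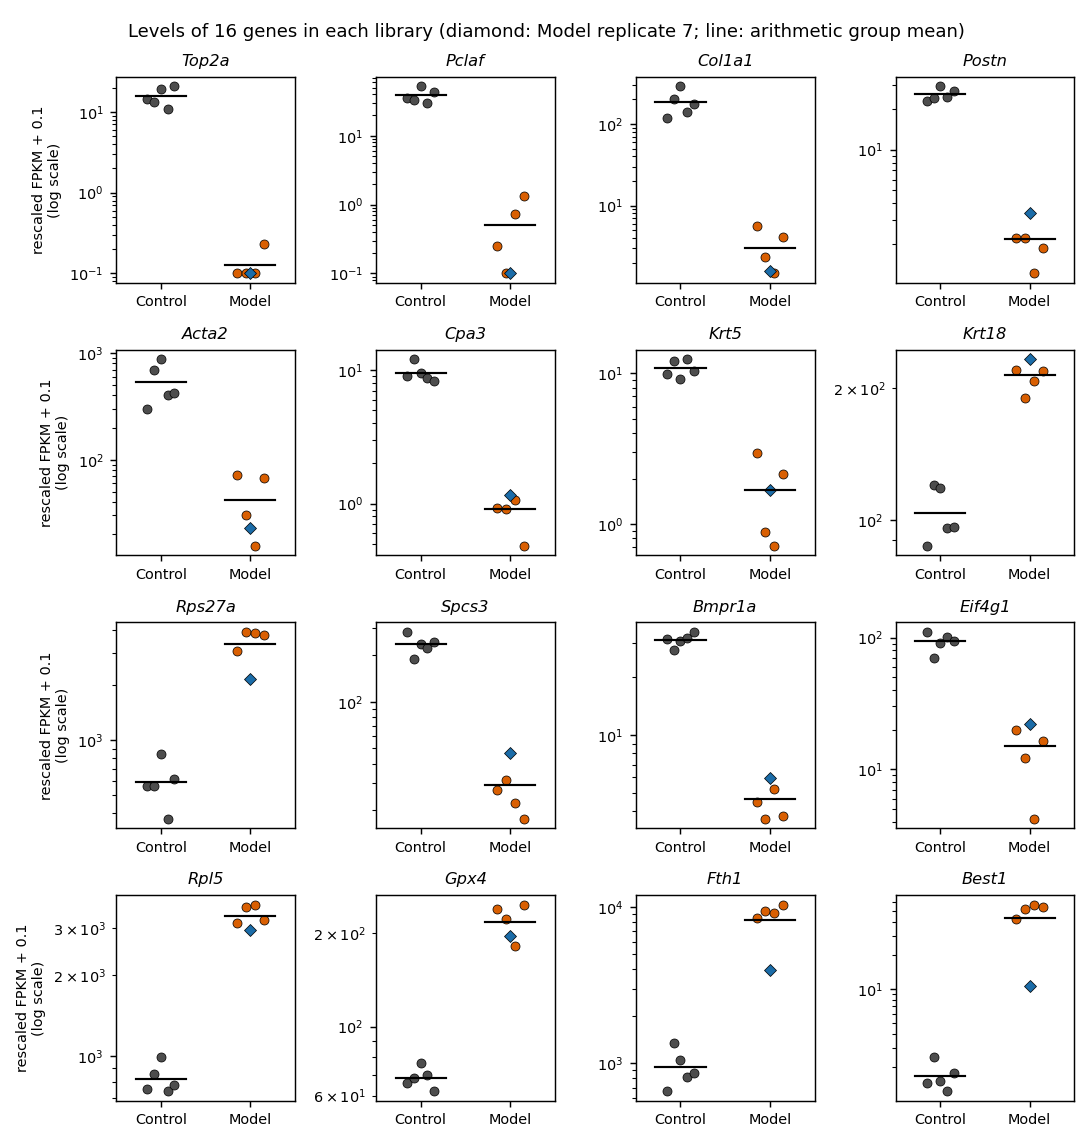
Levels of 16 genes in each library, in rescaled FPKM plus 0.1 on log axes, with Control and Model side by side; the diamond is Model replicate 7 and the line is the arithmetic mean of 5 libraries. The groups do not overlap for any of the 16, which were picked from genes named for lack of overlap or a small p. Over all members, Model lay above Control without overlap for 10.1% and below for 19.9%. Fth1 in replicate 7 (3976 rescaled FPKM) lies between the other Model libraries and Control.

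Immune markers gave few calls, against 12.4% higher and 27.6% lower over all members. Without replicate 7 these shares were 19.5% and 44.5%. Macrophage genes had 3 of 17 higher and 3 lower (5 and 3 without replicate 7), with a median log2 change of 0.36 and a summed level of 162 to 265 in Control and 161 to 626 in Model, in rescaled FPKM. As deposited, this median was −0.19. Aif1, a macrophage calcium-binding protein, had levels of 4.61, 7.09, 11.3, 4.47 and 4.13 in Control and 24.3, 8.81, 16.7, 13.5 and 15.8 in Model, in rescaled FPKM (log2 change 1.34, SE 0.33, adjusted p = 0.00897; adjusted p = 0.0659 as deposited and 0.0581 with the lobe ratio in the fit), and Control replicate 8 lay above Model replicate 7. Cd14, the lipopolysaccharide co-receptor, was at 36.8, 26.4, 38.2, 42.2 and 33.6 in Control and 19.05, 20.1, 9.05, 9.47 and 12.2 in Model, in rescaled FPKM and lower in Model without overlap (log2 change −1.40, SE 0.26, adjusted p = 0.00175). Among T and natural killer cell markers 7 of 19 passed the filter, 1 higher and 1 lower (2 and 2 without replicate 7). Cd3g, a chain of the T cell receptor complex, rose to 6.01, 1.38, 5.004, 4.45 and 8.66 from 0.658, 0.942, 1.10, 1.32 and 0.621 rescaled FPKM (log2 change 2.18, SE 0.44, adjusted p = 0.00300). The pan-leukocyte gene Ptprc fell by 1.31 on the log2 scale (adjusted p = 0.00243; 0.0613 after quantile normalization). The summed T and natural killer list was at 9.37 to 16.4 in Control and 7.84 to 25.8 in Model, in rescaled FPKM. Mast cell genes had 3 of 6 lower and 0 higher (3 and 0 without replicate 7, near the 44.5% lower over all members). Their summed level overlapped, at 34.4 to 61.1 in Control and 8.71 to 59.4 in Model, in rescaled FPKM. The list median was 0.06 in Model replicate 6 and −2.06 to −0.85 in the other Model libraries. Cpa3, a granule protease, was at 8.84, 11.9, 9.45, 8.67 and 8.16 in Control and 0.826, 1.05, 0.810, 0.954 and 0.380 in Model, in rescaled FPKM (log2 change −3.44, SE 0.26, adjusted p = 1.26e-05). Of 7 class II presentation genes 2 fell and 0 rose (3 and 1 without replicate 7), near the shares of lower genes over all members. RT1-Bb was among those lower (log2 change −1.64). No B or plasma cell marker and 1 of 10 neutrophil markers passed the filter.

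Of the innate lists, complement had most of its genes lower and the others gave few calls. Of 22 interferon-response genes 3 rose and 3 fell (3 and 5 without replicate 7): Ifi27 rose by 1.39 and the factor gene Irf7 by 1.37, while the antiviral gene Ifit1 fell by 3.30 on the log2 scale (adjusted p = 0.00193, 0.00743 and 4.46e-04). Class I presentation had 2 of 12 higher and 3 lower (3 and 4 without replicate 7), close to the 12.4% and 27.6% over all members: Psmb10, an immunoproteasome subunit, rose by 1.24. Tap2, the peptide transporter, was at 2.85, 3.83, 3.36, 2.86 and 3.25 in Control and 0.122, 0.584, 0, 0.170 and 0.457 in Model, in rescaled FPKM (log2 change −3.48, SE 0.48, adjusted p = 2.93e-04). Of 11 complement genes 9 fell and 1 rose (9 and 2 without replicate 7). The protease gene C1r fell by 2.49 on the log2 scale (adjusted p = 2.44e-04). Cd59, which protects cells from the membrane attack complex, was at 39.6, 68.5, 45.1, 50.7 and 54.2 in Control and 544, 30.7, 332, 607 and 593 in Model, in rescaled FPKM (log2 change 2.51, SE 0.73, adjusted p = 0.0193; adjusted p = 0.0641 with the lobe ratio in the fit), with replicate 7 below every Control library and the other 4 above. Of 17 chemokine and cytokine genes 4 fell and 0 rose (6 and 1 without replicate 7), among them Cxcl14 (log2 change −2.41) and Cx3cl1 (−2.38). Interleukin 1 and MyD88 pathway genes had 1 of 19 higher and 5 lower (3 and 9 without replicate 7), and 2 higher and 0 lower after centring by gene length. Il1b, its inflammatory ligand, was at 1.01, 0.245, 0.374, 0.461 and 0.129 in Control and 1.35, 0.373, 2.65, 1.88 and 0.872 in Model, in rescaled FPKM and missed the threshold with all libraries (log2 change 1.46, adjusted p = 0.0528). Il1b passed without Model replicate 7 (adjusted p = 0.00610) and without Control replicate 6 (adjusted p = 0.0295), and under 5 other settings, among them median-of-ratios scaling (adjusted p = 0.0451). Il1r1, the receptor, had a log2 change of 0.53 (adjusted p = 0.390), of 1.02 without replicate 7 (adjusted p = 5.31e-04) and of −0.025 as deposited. Its partner Il1rap fell by 1.59 (adjusted p = 0.00165; 0.0519 after centring by gene length). The adaptor gene Myd88 had a log2 change of 0.10 (adjusted p = 0.769), which turned to −0.12 without replicate 7 and −0.46 as deposited. Il17a and Foxp3 of the helper T cell question stayed under the filter, with Il17a at 0.102 in Control replicate 7 alone and Foxp3 at 0.0413 to 0.131 in Control and 0.0116 to 0.401 in Model, in rescaled FPKM.

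Genes of the cytosolic ribosome rose almost as one. The ribosome's protein genes are short, among the most abundant in any cell, and translated under growth control. Of 73 tested, 70 rose and 0 fell (71 and 0 without replicate 7), against 12.4% of all members, and replicate 7 lay above all Control libraries for all 73. Their median log2 change was 1.73, and 55 to 71 of them rose under the other scalings. Their summed level was 42060.0 to 60810.0 in Control and 147300.0 to 181100.0 in Model, in rescaled FPKM. Rpl5, a large-subunit protein, was at 757, 855, 992, 738 and 779 in Control and 3136, 2959.7, 3593, 3669 and 3217 in Model, in rescaled FPKM (log2 change 2.01, SE 0.17, adjusted p = 2e-05). Rps27a, which is made as a fusion with ubiquitin, was at 562, 561, 838, 373 and 615 in Control and 3077, 2165, 3901, 3841 and 3739.9 in Model (log2 change 2.52, SE 0.25, adjusted p = 4.55e-05). Rpl41 was the most abundant of the set in Model, at 2586 to 3547 in Control and 10149.7 to 16452 in Model, in rescaled FPKM. These families have processed copies in the genome, so the split of reads among near-identical sequences is uncertain. Of 32 translation factors 11 rose and 3 fell, and 11 rose and 10 fell without replicate 7, against 12.4% and 19.5% higher over all members. The counts were 15 and 3 after centring by gene length, 14 and 3 with median-of-ratios factors and 4 and 12 as deposited. Eef1b2, an elongation factor subunit, was at 168, 204, 213, 161 and 169 in Control and 479, 432, 492, 542 and 532 in Model, in rescaled FPKM (log2 change 1.44, SE 0.15, adjusted p = 4.43e-05). Eif4g1, the scaffold of cap-dependent initiation, was at 110.4, 70.1, 91.3, 101 and 93.97 in Control and 19.9, 22.04, 12.00, 4.12 and 16.3 in Model (log2 change −2.83, SE 0.40, adjusted p = 3.6e-04). The initiation subunit gene Eif3a fell by 1.10 and Eif4g3 by 1.59 on the log2 scale (adjusted p = 1.96e-04 and 6.71e-05).

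RNA and protein handling genes separated replicate 7 from the other Model libraries. Over all members 12.4% were higher and 27.6% lower, and 19.5% and 44.5% without replicate 7. Replicate 7 lay above all Control libraries for 42.7% of all members and below them for 41.9%. Of 50 splicing factor genes 7 rose and 7 fell with all libraries, and 8 rose and 30 fell without replicate 7, in which 41 lay above all Control libraries. The RNA helicase gene Ddx17 was at 38.3, 58.7, 51.97, 43.5 and 42.4 in Control and 6.47, 31.9, 7.80, 6.90 and 5.17 in Model, in rescaled FPKM (log2 change −2.36, SE 0.43, adjusted p = 0.00164). Prpf8, the core protein of the spliceosome, was at 23.9, 24.8, 22.4, 27.6 and 22.6 in Control and 7.14, 24.98, 6.13, 3.49 and 5.56 in Model (log2 change −1.70, SE 0.42, adjusted p = 0.00927). Replicate 7 lay within the Control range for Prpf8 and below it for Ddx17. The small-nuclear-ribonucleoprotein gene Snrpf rose by 1.29 (adjusted p = 5.61e-05), as did Srsf3, by 0.99 (adjusted p = 6.93e-04; 0.0888 as deposited). Of 37 proteasome genes 5 rose and 0 fell (6 and 16 without replicate 7). The higher counts, and the lower count without replicate 7, lay near the shares over all members. In replicate 7, 36 of these genes lay above all Control libraries. The list median was 1.25 there, against −0.59 to 0.12 in the other Model libraries. Heat shock genes had 2 of 17 higher and 2 lower (3 and 10 without replicate 7). The chaperone gene Hsp90aa1 was at 188, 125, 196, 192 and 156 in Control and 38.02, 315, 49.2, 14.8 and 15.7 in Model, in rescaled FPKM, above Control in replicate 7 alone. Genes of the endoplasmic reticulum, where secreted proteins fold, had 5 of 35 higher and 9 lower (10 and 10 without replicate 7). In replicate 7 this list went the other way from the splicing and proteasome lists, with 29 genes below all Control libraries and 6 above. Its list median was −1.91 there, against −0.49 to 0.08 in the other Model libraries. Spcs3, a subunit of the signal peptidase, was at 283, 189.5, 238, 222 and 244 in Control and 27.1, 46.5, 31.2, 21.98 and 17.5 in Model, in rescaled FPKM (log2 change −3.09, SE 0.25, adjusted p = 1.53e-05). The signal recognition particle gene Srp9 rose by 1.38 and the stress factor gene Ddit3 by 1.27 (adjusted p = 3.47e-05 and 0.00145).

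Nuclear genes of the respiratory chain rose in part, beside the larger share of mitochondrially encoded reads. The inner membrane complexes join subunits from both genomes. Of 37 nuclear complex I genes 17 rose and 0 fell, and of 39 genes of complexes II to V 19 rose and 0 fell. Over all members 12.4% were higher and 27.6% lower, and 19.5% and 44.5% without replicate 7. Without replicate 7 the 2 lists had 19 higher and 5 lower, and 19 and 8. As deposited they had 6 and 8, and 7 and 11, with list medians of −0.08 and −0.11 against −0.91 for the median member. After centring by gene length the counts were mixed (11 and 8, and 8 and 10). The list medians were then −0.09 and −0.06, near the −0.07 of the median member. Atp5f1e, the smallest subunit of the ATP synthase core, was at 190.3, 193, 229, 209 and 179 in Control and 945, 564, 964, 894 and 1201 in Model, in rescaled FPKM (log2 change 2.15, SE 0.20, adjusted p = 3.3e-05). Ndufa5 of complex I changed by 1.69, Ndufa6 by 1.39 and Sdhc of complex II by 1.27 (log2, adjusted p = 3.71e-05, 3.62e-05 and 3.89e-05), each without overlap. Among 73 mitochondrial ribosomal proteins 35 rose and 0 fell (38 and 9 without replicate 7; the list median was −0.04 as deposited), with Mrpl58 at a log2 change of 1.75. Of 18 genes that maintain and express the mitochondrial genome 0 rose and 2 fell (2 and 9 without replicate 7), and replicate 7 lay above all Control libraries for 14. The counts turned to 7 higher and 2 lower with quantile normalization, 5 and 1 after centring by gene length and 4 and 2 with median-of-ratios factors. Lrpprc, which stabilises mitochondrial messenger RNAs, was at 14.8, 12.4, 16.2, 18.7 and 15.2 in Control and 2.90, 20.3, 2.88, 0.841 and 1.79 in Model, in rescaled FPKM (log2 change −2.28, SE 0.65, adjusted p = 0.0183; adjusted p = 0.114 with the lobe ratio in the fit), above Control in replicate 7 and below it in the other 4.

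With all 10 libraries, fatty acid and cholesterol synthesis had a larger share of lower genes than the citrate, glycolysis and polyamine lists. Over all members 12.4% were higher and 27.6% lower. Without replicate 7 most citrate genes were lower too, against 44.5% of all members. The citrate list median was then −0.37, near the −0.42 of the median member. The prostate secretes citrate, and of 23 genes of the citrate cycle and citrate export 2 rose and 4 fell (2 and 14 without replicate 7). Idh1, a cytosolic enzyme that makes NADPH, rose by 1.27 on the log2 scale (adjusted p = 0.00708), a call lost as deposited (adjusted p = 0.0876). Fh, fumarase, was at 23.9, 23.2, 26.4, 28.5 and 25.3 in Control and 10.2, 29.4, 10.6, 7.28 and 7.72 in Model, in rescaled FPKM (log2 change −1.17, SE 0.33, adjusted p = 0.0182; adjusted p = 0.124 with the lobe ratio in the fit). Of 17 glycolysis genes 3 rose and 2 fell (3 and 4 without replicate 7); Tpi1 rose by 1.01 (adjusted p = 0.00395; 0.152 as deposited) and the hexokinase genes fell, Hk1 by 1.93 and Hk2 by 3.19 (adjusted p = 0.00230 and 0.00842), the latter with replicate 7 at a Control level. Cholesterol genes had 9 of 20 lower and 2 higher (13 and 2 without replicate 7). Sqle, squalene epoxidase, fell by 1.92 and Msmo1 by 1.67, while Mvd of the mevalonate pathway rose by 1.30 (log2, adjusted p = 1.5e-04, 7.67e-05 and 0.00104). Fatty acid synthesis had 8 of 15 lower and 0 higher (9 and 2 without replicate 7), and 4 lower and 0 higher after centring by gene length. The desaturase gene Scd was at 32.3, 11.99, 64.1, 225 and 50.4 in Control and 1.08, 1.08, 1.22, 3.08 and 3.05 in Model, in rescaled FPKM (log2 change −4.78, SE 0.67, adjusted p = 3.47e-04). Polyamine genes had 2 of 10 higher and 0 lower (3 and 3 without replicate 7), among them Oaz1, the antizyme, with a log2 change of 0.92 (adjusted p = 0.00303; 0.111 as deposited and 0.0536 scaled to the sum of FPKM).

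Ferritin and single redox genes were higher in Model. Fth1 (NCBI gene 25319), the ferritin heavy chain that stores iron, was at 661, 1346, 1056, 817 and 868 in Control and 8427, 3976, 9435, 9091 and 10354 in Model, in rescaled FPKM, 8.51-fold higher in the fit (log2 change 3.09, SE 0.31, adjusted p = 4.04e-05). Gpx4, the peroxidase that protects membrane lipids, was at 65.7, 68.2, 76.5, 69.8 and 61.8 in Control and 238, 195, 221, 181 and 247 in Model, in rescaled FPKM (log2 change 1.65, SE 0.14, adjusted p = 2.11e-05). Over all members 12.4% were higher and 27.6% lower, and 19.5% and 44.5% without replicate 7. Of 27 antioxidant genes 5 rose and 3 fell (7 and 10 without replicate 7). Keap1, the sensor that restrains Nrf2, rose by 1.21. Gclc, the rate-limiting glutathione enzyme, was at 19.7, 13.9, 17.8, 15.3 and 17.2 in Control and 0.914, 16.7, 3.43, 0.913 and 1.61 in Model, in rescaled FPKM (log2 change −2.73, SE 0.67, adjusted p = 0.00882). The extracellular dismutase gene Sod3 fell by 3.85 on the log2 scale (adjusted p = 2.08e-04). Of 19 immediate early genes 9 fell and 1 rose (14 and 1 without replicate 7), among them Zfp36, which destabilises cytokine messages. Zfp36 was at 15.5, 14.5, 17.5, 15.1 and 17.04 in Control and 4.53, 9.03, 1.15, 1.64 and 1.06 in Model, in rescaled FPKM (log2 change −2.65, SE 0.52, adjusted p = 0.00263). Fbxo32, the ubiquitin ligase subunit atrogin, had reads in replicate 7 alone of the Model libraries, with 9.11, 16.05, 12.9, 10.9 and 8.45 in Control and 0, 1.24, 0, 0 and 0 in Model, in rescaled FPKM (log2 change −6.07, SE 0.69, adjusted p = 8.95e-05).

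Among the members with gene symbols that did not overlap between the groups, the highest log2 change was that of Best1, a chloride channel gene, at 1.35, 2.36, 1.40, 1.12 and 1.68 in Control and 41.8, 10.5, 51.5, 56.8 and 53.5 in Model, in rescaled FPKM (log2 change 4.51, SE 0.44, adjusted p = 3.8e-05). In the RefSeq table of build GRCr8, Best1 and Fth1 are neighbours less than 1 kb apart, and Best1 stood at a small fraction of the Fth1 level in every library. With no statement on strand, reads at the ends of such neighbours cannot be told apart. Next in this order were Pdzk1ip1, a membrane cargo protein (log2 change 3.86, adjusted p = 5.21e-04), Gnrh1, gonadotropin-releasing hormone (3.78, adjusted p = 4.09e-04), and Ccdc152 (3.49, adjusted p = 5.03e-04). Gnrh1 was at 0.118, 0.230, 0.114, 0.113 and 0.266 in Control and 1.36, 1.71, 8.85, 8.99 and 2.61 in Model, in rescaled FPKM. Gnrh1 thus passed the filter of 0.5 through the Model libraries alone, which fixes its direction and lack of overlap. In the RefSeq table it overlaps LOC103693653, so its reads are uncertain too. Ccdc152 overlaps the selenoprotein gene Selenop in that table, whose log2 change was 0.74 at a mean of 131.9 rescaled FPKM in Control and 230.1 in Model, so its reads are uncertain in the same way. S100a13, a calcium-binding protein of the non-classical secretion route, was at 6.67, 8.17, 10.7, 6.37 and 6.43 in Control and 41.3, 59.8, 60.5, 51.5 and 36.04 in Model, in rescaled FPKM (log2 change 2.68, SE 0.21, adjusted p = 1.42e-05). The neighbours S100a1 and S100a14 had log2 changes of −0.86 and −2.60. Klk1c3 rose by 3.08 and Klk1c9 fell by 5.78 on the log2 scale (adjusted p = 6.89e-04 and 0.0157); the latter call was lost with the lobe ratio in the fit (adjusted p = 0.143). Both belong to a kallikrein family whose near-identical copies can share reads.

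Across all members, the change followed the length of the gene. With the members cut into 5 equal classes of length, the median log2 change was 0.27 in the shortest class (0.192 to 1.61 kb), −0.20, −0.38 and −0.60 in the next, and −0.80 in the longest (5.78 to 58.4 kb). Of the shortest class 31.6% rose and 12.1% fell, and of the longest 2.54% rose and 47.1% fell. The medians were 0.21 and −0.85 at the ends without replicate 7. Every Model library showed the slope: the median level against Control was 0.88 to 1.28 higher on the log2 scale in the shortest than in the longest class, and 1.26 in replicate 7, while Control libraries spanned −0.06 to 0.12. The median length was 0.690 kb for cytosolic ribosomal proteins and 0.675 kb for complex I, against 3.11 kb over all members, 5.71 kb for collagens and 3.27 kb for mitosis genes. After centring each library in 20 bins of gene length, all 29 mitosis genes and 15 of 16 collagen genes still passed as lower and 65 of 73 ribosomal protein genes as higher, with list medians of −3.95, −3.07 and 1.08. RNA integrity values per library are not given in the sources used here, so the part of RNA quality in this slope was not tested.

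**Figure D5:**
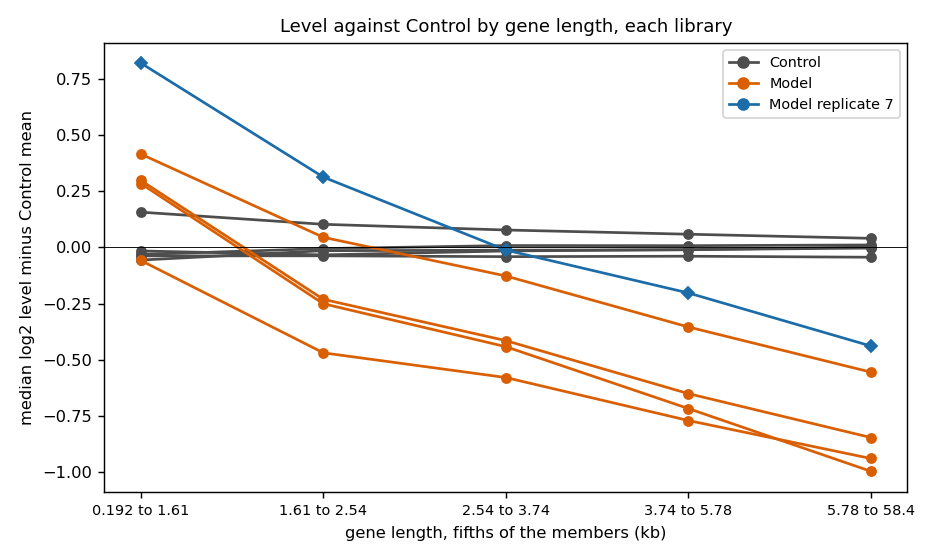
Median over members of the log2 level (rescaled FPKM plus 0.1) minus the gene's Control mean, in 5 classes of gene length in kb, with a line for each of the 10 libraries. All 5 Model lines fall from short to long genes, by 0.88 to 1.28, and the Control lines stay near 0.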

How the data were processed

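RNA-seq libraries of 5 Control and 5 Model rat prostate samples were analysed. The labels' protocols name total RNA, TRIzol extraction and a VAHTS Universal V5 library kit. The deposited table holds FPKM per gene and library, computed by the authors. The submitters' processing notes name fastp, HISAT2, HTSeq, SAMtools, R 3.2.0, DESeq2 and genome build rn6, with no role or order; the strand of counting is not given in the sources used here. Whole reads were recovered from the steps of the deposited FPKM for all 22436 genes (within 0.001 of a whole read), and each library was divided by its nuclear share. Genes over 0.5 in at least 5 of 10 libraries were tested as log2(value + 0.1) with limma 3.58.1 in R 4.3.3, without a block, with Benjamini-Hochberg adjustment over 12475 genes; this scale understates changes of low genes. The script was tested on simulated data. The members and the 49 gene lists were chosen with earlier results of these data known. Named genes were the 14 highest and 14 lowest changes among called members without overlap, up to 3 called members per list and direction by p, the 6 most abundant members of each group, the lobe markers and the genes of the series question; some of these are not reported here; neighbours and Hoxb13, Krt18 and Anln were named beside them. Precision is limited by 18351107 to 34696410 nuclear reads per library, and floors cover counting error only. Same-numbered samples did not deviate together (correlations −0.43 to 0.06), so the numbers were not used as pairs. No 2 libraries agreed within sampling noise. Alternatives were other scalings, filters, pseudocounts, weights, covariates, limma-voom on the recovered reads and leaving out each library. LIPUS libraries entered only the alternative with all 15 samples.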

Additional observations from a re-analysis of the deposited data

Results flagged for a closer look

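Sets of 5 libraries were looked at for the genes named here and the library measures, each in each group. In 28 of 238 sets, the highest or lowest library stood apart by Dixon's 95% critical value. Model replicate 7 was that library in 20 of the 28. Genes of the same libraries can move together, so the sets are not independent and no rate by chance is set beside this count. Replicate 7 was singled out for its lobe make-up, which its ventral and dorsolateral values restate. Its ventral secretoglobins took 9.13% of nuclear reads and its dorsolateral products 0.0422%. Replicate 7 was the highest Model library with 1.24 for Fbxo32, 4.66 for Igfbp5, 2419.8 for Klk1c9, 22906 for Andpro, 37448 for Scgb2a1 and 29.4 for Fh (rescaled FPKM). Further levels highest in it were 17.01 for Hk2, 20.3 for Lrpprc, 31.9 for Ddx17, 24.98 for Prpf8, 16.7 for Gclc and 315 for Hsp90aa1 (rescaled FPKM). It also led the Model libraries with 42226 for Scgb1d4 and 41078 for Scgb1d2 (rescaled FPKM). It was the lowest Model library with 2.13 for Pdzk1ip1, 8.20 for Msmb, 45.3 for Semg1 and 52.5 for Idh1 (rescaled FPKM). Elsewhere, single libraries stood apart for Cx3cl1 in Control replicate 8 (3.77), Semg1 in Control replicate 7 (91522), Scd in Control replicate 9 (225), Rpl41 in Control replicate 8 (3547), Il17a in Control replicate 7 (0.102) and Top2a in Model replicate 10 (0.134), in rescaled FPKM. The same held for Rrm2 in Model replicate 10 (0.135) and Rbl1 in Model replicate 6 (0.798). Mitochondrially encoded reads, which the comparison leaves out, averaged 34.9% in Model, above the 3.75 to 4.69% in Control.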

How the results depend on the processing

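Against 1485 members higher and 3319 lower, the higher count became 580 as deposited, 804 scaled to the sum of FPKM, 2536 after quantile normalization and 2315 with the lobe ratio as a covariate. The lower count became 6890 as deposited, 2165 after centring by gene length and 5286 with array weights, which gave replicate 7 a weight of 0.0612. Leaving out each library gave 1207 to 2342 higher and 2600 to 5356 lower members; both upper values are those without Model replicate 7, and the other 9 libraries gave at most 1481 and 3302. The cause was not tested. With the replicate number as a block the counts were 1086 and 2545, with 2 calls of named genes lost. Only replicate 10 deviated most like its own number, which cannot show whether same-numbered samples shared handling. With the lobe ratio as a covariate, 9 of the named genes called lost their call, and the log2 changes of Pbsn (−1.91), Msmb (−2.99), Semg1 (−4.27), Defb50 (−2.29) and Il1r1 (−0.67) turned negative. Pbsn and Msmb are part of that ratio, so their change of sign is built into it. As deposited, those of Hoxb13 (−0.010), Il1r1 (−0.025) and Myd88 (−0.46) did, and Myd88 was also below 0 scaled to the sum of FPKM (−0.23), with array weights (−0.13) and without replicate 7 (−0.12); leaving out each library in turn gave Myd88 −0.12 to 0.21. Depth limits genes under the level that 3 reads give.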
